A study of Mus musculus with 12 samples.

Results

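The 32 genes described here make cholesterol and fatty acids in the cell, govern that synthesis, or remove cholesterol from the cell. They were found by gene name among the 48709 genes listed in both deposited tables, and all 32 were present. They comprised 7 genes of the mevalonate section, 11 of the sterol section and 6 of fatty acid synthesis, which together give 24 synthesis genes. A further 5 genes encode regulators or a sterol carrier, and 3 (Abca1, Abcg1 and Mylip) serve cholesterol efflux or are switched on by oxysterols. Each gene was followed in all 12 libraries.

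Cholesterol is built from acetyl-CoA through mevalonate, squalene and lanosterol, and fatty acids are built from the same acetyl-CoA by a separate branch. The transcription factors SREBP1 and SREBP2, encoded by Srebf1 and Srebf2, switch on both branches when sterols in the endoplasmic reticulum are low. Scap escorts them to the Golgi for activation and Insig1 holds them back. When oxysterols accumulate, the nuclear receptors LXR switch on the efflux transporters Abca1 and Abcg1 and the ubiquitin ligase Mylip. In HSPC (hematopoietic stem and progenitor cells), from which the blood is renewed, efflux through these transporters is known from mouse knockouts to restrain proliferation.

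The HSPC came from bone marrow of wild-type (WT) mice, with no strain, sex or age given, and were sorted. Transfection was with miR184, with miR499 or with a control miRNA named control miR, and RNA was sequenced 2 days later. Each miRNA had 3 libraries and its own 3 control miR libraries in the same table, with controls 1 to 3 beside miR184 and controls 4 to 6 beside miR499. The labels give neither the arm or form of the miRNA nor the transfection efficiency, and do not say that replicates came from separate animals or cultures. Hence a p-value here speaks for the spread of these libraries alone, and that spread may be technical. The descriptions of controls 4 to 6 carry a suffix that 0 of the 3 miR499 libraries carry. Its meaning is not given, and anything behind it cannot be told apart from the miR499 transfection.

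The mature miRNAs are shown first because their seed, bases 2 to 8 in capitals, is the part that pairs with target messages. The sequences are from RefSeq on GRCm38.p6, Mir184 lying on the minus strand of chromosome 9 (chr9:89802263-89802284 for the 3p arm) and Mir499 on the plus strand of chromosome 2 (chr2:155622893-155622913 for the 5p arm).
miR-184-3p: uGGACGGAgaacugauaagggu
miR-184-5p: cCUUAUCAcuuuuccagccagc
miR-499-5p: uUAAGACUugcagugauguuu
miR-499-3p: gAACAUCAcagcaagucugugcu
The 4 seeds are all different.

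Seed matches were sought in the longest 3' UTR that GENCODE M21 annotates for each gene on GRCm38, the assembly of mm10. All 32 genes had a 3' UTR. A match to miR-184-3p stood in 2 of them, the sterol gene Hsd17b7 and the fatty acid gene Acaca, against 5.51% of 9839 genes with a mean of at least 1 RPKM in either table and a 3' UTR. A match to miR-499-5p stood in 4, Nsdhl, Elovl6, Insig1 and Stard4, against 17.9% of those genes. The opposite arms matched more members, with 5 for miR-184-5p (11.5% of genes) and 10 for miR-499-3p (20.2%). The 5 were Hmgcs1, Idi1, Lss, Abca1 and Abcg1. The 10 were Acat2, Hmgcs1, Idi1, Fdft1, Cyp51, Nsdhl, Hsd17b7, Acly, Acaca and Scd2. These are matches of letters and not shown to be sites of action. The windows of the matches to the arms miR-184-3p and miR-499-5p follow, on the strand of the gene, with the match in capitals. That of Stard4 is not shown. The window of Hsd17b7 lies at chr1:169952536-169952563 (minus strand), of Acaca at chr11:84399980-84400007 (plus strand), of Nsdhl at chrX:72957891-72957918 (plus strand), of Elovl6 at chr3:129634106-129634133 (plus strand) and of Insig1 at chr5:28076979-28077006 (plus strand).
Hsd17b7 with miR-184-3p: ttattcattcatggTCCGTCCAtgtagt
Acaca with miR-184-3p: aaagcaggactgcccTCCGTCCtgcctg
Nsdhl with miR-499-5p: aagtctttatctgggGTCTTAAaaattg
Elovl6 with miR-499-5p: tccttgataaaagatGTCTTAAttattt
Insig1 with miR-499-5p: gactgcttacctaaaAGTCTTAccttgc

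Depth and cell markers were read for all libraries. RPKM counts the reads on a gene relative to the gene's length and to the library's total. The library totals behind it, worked out from the values, ran from 31990355 to 46601798 reads. The HSPC markers Kit (8.17 to 57.1 RPKM), Cd34 (53.6 to 122) and Ly6a (29.7 to 147) were present in every library, and Mecom stayed under 1 RPKM. Markers of B cells, of T cells and of marrow stroma each summed to at most 2.25 RPKM in any library. The highest B cell sum (2.25) and the highest T cell sum (1.45) were both in miR184 3. The entries Mir184 and Mir499 were listed at 0 throughout, which does not check the transfection, since a mature miRNA is not measured there. One treated library in each table stood apart. In miR184 3, 13675 genes were above 0, where the other 5 libraries had between 16702 and 17136. The library miR499 3 had a median-ratio size factor of 1.2218, against 0.9287 to 1.0073 in the other 5, and the main results are given with and without each. For most genes in which miR499 3 lay outside the range of its table, it lay toward the controls of the miR184 table. The labels give no means to check this library's identity or run, so every miR499 value that includes it carries that doubt.

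The synthesis genes were expressed over a wide range in control cells. Within each table, Fdps, which makes farnesyl diphosphate, was the highest member at 357 ± 4.60 RPKM in controls 1 to 3 and 441 ± 30.1 in controls 4 to 6 (SD, n = 3 each). Other abundant enzymes in controls 1 to 3 were Idi1 (115 ± 5.27), Hmgcs1, which makes HMG-CoA (113 ± 5.27), and Acly, which supplies acetyl-CoA (104 ± 5.29). In the sterol section the controls 1 to 3 ran from 5.30 RPKM in Tm7sf2, a sterol reductase, to 68.3 in the methylsterol oxidase Msmo1. The efflux genes sat at the bottom. Abcg1 averaged 0.980 ± 0.124 RPKM and Mylip 0.671 ± 0.163 in controls 1 to 3, and Abca1 was covered by 5 to 10 reads. The desaturase gene Scd1 was also low, at 0.556 ± 0.119 RPKM, while its close relative Scd2 stood at 63.9 ± 3.47. Because Abca1, Mylip and Scd1 averaged under 1 RPKM in both tables, 29 of the 32 genes entered the tests.

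**Figure D1:**
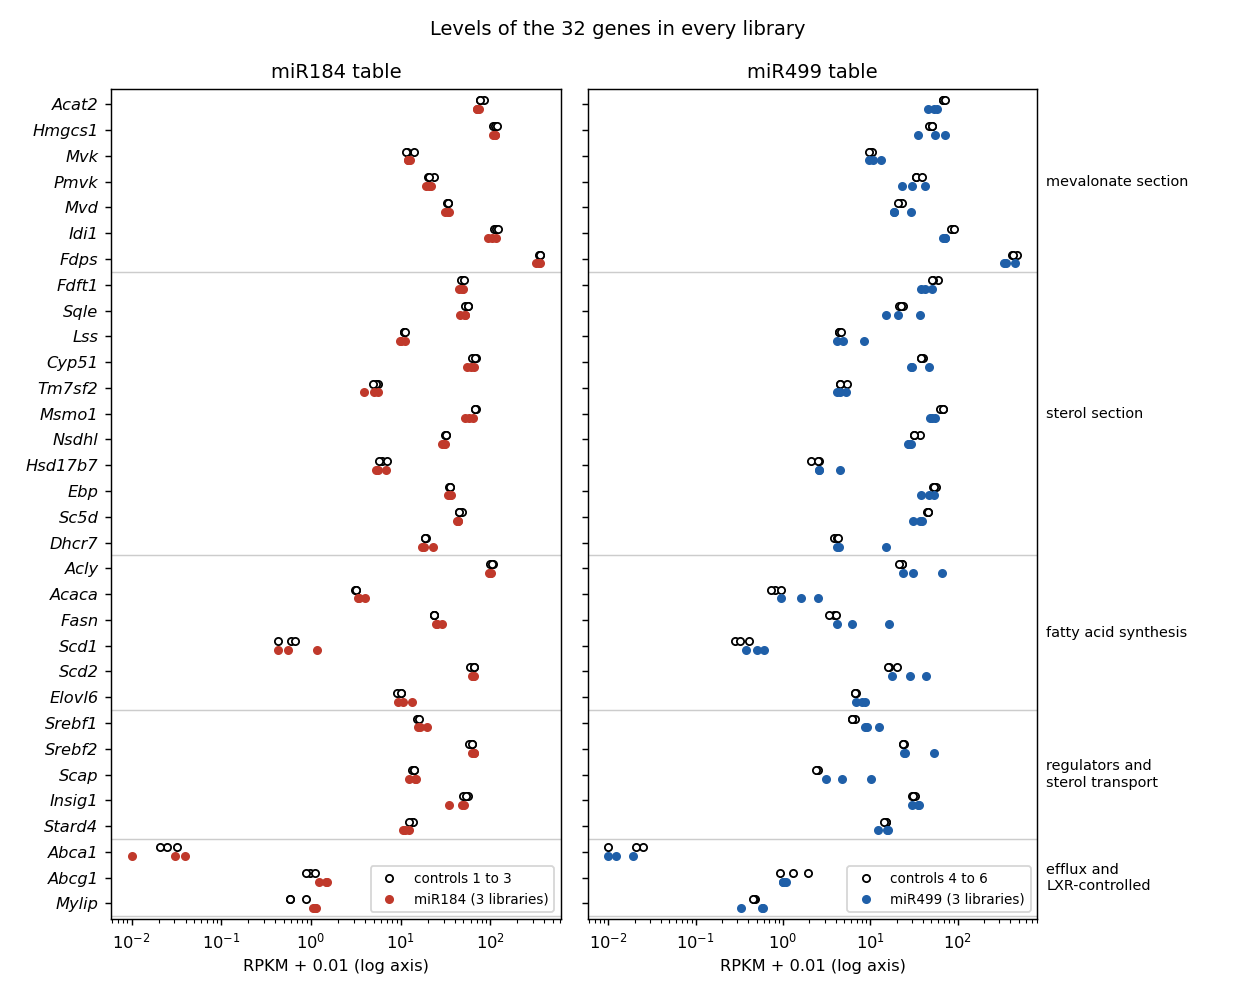
RPKM of the 32 genes in each of the 12 libraries, with 0.01 added, on a log axis; open circles are controls and filled circles treated libraries, genes grouped by role. Fdps lies highest and Abca1 lowest in both tables, and with miR499 a single filled circle lies far to the right of the others for several fatty acid and regulator genes.

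The question put to the miR184 libraries was whether the synthesis and efflux genes differed from controls 1 to 3. None of the 29 tested members passed, and the differences were small. Of the 18 enzymes of the mevalonate and sterol sections, 16 were lower with miR184 (median log2 change -0.07), whereas 4 of the 5 tested fatty acid genes were higher, with a median of 0.15 (3 of 5 with median-ratio scaling). Both low efflux genes with measurable levels, Abcg1 and Mylip, were higher in all 3 miR184 libraries. Over all 10372 genes tested the median log2 change was 0.0022 and 49.4% were lower. By limma 0 genes passed at an adjusted p under 0.05 (0%), and 475 (4.58%) had an unadjusted p under 0.05, as did 4 of the 29 members. In bulk RNA, fewer cells of a type and less RNA per cell cannot be told apart.

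Among the mevalonate genes, Acat2, whose cytosolic thiolase joins acetyl-CoA units, had the smallest p. Its level was 75.6, 84.7 and 76.1 RPKM in controls 1 to 3 and 74.2, 71.6 and 70.9 with miR184 1 to 3. The groups did not overlap, miR184 being lower, at a log2 change of -0.12 ± 0.06 (SE; adjusted p = 0.827, limma). In Hmgcs1, Mvk, Pmvk, Mvd, Idi1 and Fdps the groups overlapped, with log2 changes between -0.14 in Idi1 and 0.01 in Mvd. For Hmgcs1 the 95% interval ran from -0.16 to 0.08 on the log2 scale, and for Fdps from -0.17 to 0.05.

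In the sterol section Msmo1, an oxidase that acts in the removal of methyl groups from lanosterol-derived sterols, had the smallest p of all members. It measured 67.7, 69.7 and 67.4 RPKM in controls 1 to 3, and 63.5, 57.3 and 51.7 with miR184. Each miR184 library lay below each control, and the log2 change was -0.25 ± 0.08 (adjusted p = 0.723, limma; -0.18 ± 0.06 without miR184 3). Sqle, the squalene epoxidase that commits squalene to sterols, read 52.2, 56.0 and 56.4 RPKM in controls and 52.4, 51.5 and 46.2 with miR184, at -0.13 ± 0.07 (adjusted p = 0.827, limma). Here miR184 1 lay just above control 1, so the groups overlapped. Nsdhl and Sc5d, which act in the demethylation and desaturation of sterols, were lower without overlap at log2 changes of -0.08 ± 0.05 and -0.10 ± 0.05. Fdft1, Lss, Cyp51, Tm7sf2, Hsd17b7 and Ebp overlapped with changes from -0.14 to -0.0043. Dhcr7, the last reductase of one branch, was the exception at 0.04 ± 0.10. Its miR184 libraries stood at 18, 17.4 and 22.9 RPKM against 18.5, 19.2 and 18.4 in controls, so the positive sign came from miR184 3 and the change was -0.08 without it.

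Without miR184 3 all 18 mevalonate and sterol enzymes were lower, with the same median of -0.07, while 0 genes passed. The number lower was 13 of 18 without control 1 and also 13 without miR184 2. Over the 29 members, 5 were lower without overlap (Acat2, Msmo1, Nsdhl, Sc5d and Stard4) and 3 higher (Acaca, Fasn and Abcg1). Over all genes tested, 4.41% were lower and 7.3% higher without overlap, 11.7% together.

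The fatty acid branch lay on the other side of 0 with miR184. Fasn, the fatty acid synthase, stood at 23.2, 23.2 and 23.7 RPKM in controls 1 to 3 and at 24.8, 25.4 and 28.9 with miR184. All miR184 libraries were above all controls, at a log2 change of 0.17 ± 0.07 (adjusted p = 0.827, limma). Acaca, the acetyl-CoA carboxylase that makes malonyl-CoA, was also higher without overlap, from 3.13 ± 0.0728 to 3.59 ± 0.359 RPKM (SD, n = 3 each). The elongase Elovl6 had a log2 change of 0.16 ± 0.12, the desaturase Scd2 of 0.00 ± 0.06 and Acly of -0.07 ± 0.05, each with overlapping groups. Scd1 read 0.590, 0.653 and 0.424 RPKM in controls and 0.417, 0.547 and 1.17 with miR184. Much of the branch's difference lay in miR184 3, and without that library the median was 0.04, with Fasn at 0.10 ± 0.04.

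The regulators showed no common direction with miR184. Srebf1 read 15.6, 15.1 and 16.1 RPKM in controls 1 to 3 and 15.4, 16.3 and 19.7 with miR184, at a log2 change of 0.12 ± 0.09 (0.02 ± 0.05 without miR184 3). Srebf2 read 62.4, 57.2 and 62.7 RPKM in controls and 64.9, 65.7 and 62.1 with miR184, at 0.08 ± 0.06. In both genes the groups overlapped, with miR184 3 the highest library for Srebf1 and not for Srebf2. Insig1 stood at 49.5, 56.1 and 52.8 RPKM in controls and 51.2, 47.7 and 34.7 with miR184. Only miR184 3 lay far below the controls, and the log2 change of -0.26 ± 0.14 became -0.09 ± 0.06 without it. Stard4, a carrier that moves cholesterol between membranes and is itself an SREBP target, read 13.3, 13.6 and 12.5 RPKM in controls and 12.4, 10.6 and 11.2 with miR184. Its groups did not overlap, although miR184 1 and control 3 were close, and the change was -0.19 ± 0.08 (adjusted p = 0.827, limma). Scap was at -0.01 ± 0.08.

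Abcg1 and Mylip differed more in proportion than any synthesis gene, but from low levels. Abcg1, which exports cholesterol to high-density lipoprotein, read 0.966, 0.864 and 1.11 RPKM in controls 1 to 3 and 1.45, 1.48 and 1.23 with miR184, from 160 to 196 and 215 to 254 reads. All 3 miR184 libraries lay above all controls, at a log2 change of RPKM + 1 of 0.27 ± 0.11 (adjusted p = 0.827, limma; 0.32 ± 0.08 and adjusted p = 0.320 without miR184 3). Its mean was under 1 RPKM in controls, so it entered the test only through the miR184 libraries, and in the fit with no filter it stood at 0.27 ± 0.10 (adjusted p = 0.850, limma). On recovered reads with limma voom, where no 1 is added, its log2 change was 0.50 (adjusted p = 0.803). Mylip, a ligase that degrades lipoprotein receptors, read 0.575, 0.860 and 0.579 RPKM in controls and 1.09, 1.14 and 1.03 with miR184. It too was higher in all 3, at 0.32 ± 0.10 in the fit with no filter on low genes (adjusted p = 0.850, limma), where 4.98% of 19676 genes were higher without overlap. Abca1 was represented by 7, 5 and 10 reads in controls and 9, 12 and 0 with miR184, too few to show a difference. Where no read was found, counting error alone would still permit 3 reads.

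Abcg1 and Mylip are also genes of macrophages, so macrophage markers were read beside them. The 8 markers summed to 8.15 to 9.75 RPKM in controls and 6.08 to 8.86 with miR184, and 6 of the 8 were under 1 RPKM (Mertk, Marco, C1qa, C1qc, Vsig4 and Cd5l). Of the 2 tested markers 1 was higher and 1 lower with miR184, and the part of macrophages in the Abcg1 and Mylip values was not tested. Megakaryocyte markers, all 5 of them higher, summed to 543 to 608 RPKM in controls and 581 to 653 with miR184, and their part in the values was not tested. Among 16 other LXR, efflux and storage genes, 12 were tested, 0 passed, and 11 were higher with a median of 0.10. The smallest p belonged to the lipid droplet gene Plin2 (60 ± 5.21 against 67.1 ± 3.38 RPKM, 0.16 ± 0.08), the lysosomal lipase gene Lipa (0.16 ± 0.09), the LXR gene Nr1h2 (0.17 ± 0.10) and the esterification gene Soat1 (-0.20 ± 0.13). Without miR184 3, 8 of the 12 were higher. Among 24 other genes of the synthesis pathway, 21 were tested, 0 passed and 11 were lower, with a median of -0.03. Their smallest p belonged to Dhdds (-0.10 ± 0.07), Tecr (-0.07 ± 0.05), Ggps1 (-0.14 ± 0.10) and Pdss2 (-0.15 ± 0.12).

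**Figure D2:**
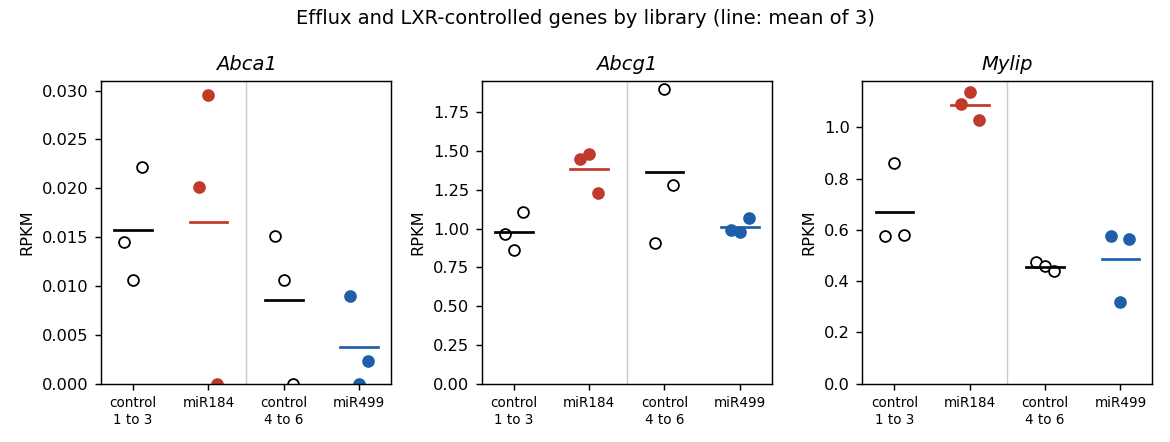
RPKM of Abca1, Abcg1 and Mylip in each library, with a line at the mean of 3; open circles are controls and filled circles treated libraries, and each miRNA stands beside the controls of its own table. Abcg1 and Mylip lay above all 3 controls in every miR184 library and overlapped controls 4 to 6 with miR499.

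With miR499, compared with controls 4 to 6, the cholesterol and fatty acid branches lay on opposite sides of 0. Of the 18 mevalonate and sterol enzymes 12 were lower (median log2 change -0.17), and all 5 tested fatty acid genes were higher, with a median of 0.67. By limma 0 of 9815 genes passed (0%), among them 0 of the 29 members. An unadjusted p under 0.05 was found for 992 genes (10.1%) and 6 members. The median over all genes was -0.01, with 50.9% lower. The sizes in the fatty acid branch rested largely on miR499 3, without which the branch median was 0.31 and the median of the 18 cholesterol enzymes -0.20. The median over all genes without miR499 3 was -0.06, with 58.7% lower.

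Acat2 stood at 67.8, 68.2 and 70.6 RPKM in controls 4 to 6 and at 46.2, 53.8 and 57.8 with miR499 1 to 3. Idi1, the isomerase that makes dimethylallyl diphosphate, stood at 89.1, 84.4 and 89.7 RPKM in controls and 72.3, 68.4 and 71.9 with miR499. In both, every miR499 library was below every control, at log2 changes of -0.39 ± 0.12 and -0.30 ± 0.10 (adjusted p = 0.491 each, limma). In the other mevalonate genes the groups overlapped, and miR499 2 or miR499 3 stood apart from the other miR499 libraries. Hmgcs1 read 47.1, 51.0 and 50.4 RPKM in controls and 54.6, 35.3 and 72.3 with miR499, a spread that covered the controls on both sides. Its log2 change was 0.07 ± 0.25 with all libraries and -0.17 ± 0.15 without miR499 3. Pmvk showed the reverse order, with 30.3, 42.2 and 23.0 RPKM with miR499 and 33.3 to 38.5 in controls. Fdps stood at 339, 449 and 352 RPKM with miR499 and at 421 to 476 in controls, a log2 change of -0.22 ± 0.16.

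Msmo1 was again among the lowest p-values of the sterol section. It read 67.1, 62.6 and 68.2 RPKM in controls 4 to 6 and 48.1, 50.1 and 55.0 with miR499. Sc5d, the desaturase of the late pathway, read 45.2, 43.9 and 45.7 RPKM in controls and 30.6, 38.7 and 37.1 with miR499. Neither gene overlapped, and the log2 changes were -0.36 ± 0.11 and -0.34 ± 0.13 (adjusted p = 0.491 each, limma). Fdft1, the squalene synthase, and Nsdhl were lower without overlap too, at -0.30 ± 0.14 and -0.25 ± 0.11. Cyp51, the lanosterol demethylase, stood at 40.4, 37.5 and 37.8 RPKM in controls and 29.3, 29.6 and 46.9 with miR499. In Cyp51 miR499 3 lay above every control and the other miR499 libraries below every control. Sqle (20.8, 14.9 and 36.8 RPKM with miR499 against 21.1 to 23.7 in controls) and Lss, the cyclase that makes lanosterol (4.13, 4.80 and 8.45 against 4.32 to 4.62), had the same high library. In Dhcr7 that library stood at 15.0 RPKM, against 3.8 to 4.39 in the other 5. Over the sterol and mevalonate sections 6 of 18 enzymes were lower without overlap and 0 higher, against 12.8% and 11.4% of all genes tested (24.2% together).

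Fatty acid genes were higher with miR499 in each tested case, and in Fasn, Acly, Acaca and Scd2 the highest library was miR499 3. Fasn read 3.79, 4.01 and 3.31 RPKM in controls 4 to 6 and 6.20, 4.19 and 16.2 with miR499. Acly read 23.1, 23.0 and 21.1 RPKM in controls and 30.8, 23.6 and 65.4 with miR499. Both lay above the controls in all 3 libraries, by little in miR499 2 and by much in miR499 3. Their log2 changes were 0.88 ± 0.41 and 0.67 ± 0.34, and without miR499 3 they were 0.38 ± 0.15 and 0.26 ± 0.11. Acaca (0.52 ± 0.22) and Elovl6 (0.20 ± 0.14, or 0.18 ± 0.11 without miR499 3) were also higher without overlap, and Scd2 (0.67 ± 0.30) overlapped. Acaca averaged 0.821 RPKM in controls and 1.68 with miR499, so it entered the test only through the miR499 libraries. With a filter at 5 RPKM, which removes it, 4 of 4 fatty acid genes were higher with a median of 0.67. Scd1 stood at 0.402, 0.272 and 0.310 RPKM in controls and 0.592, 0.5 and 0.366 with miR499. No fatty acid gene passed with or without miR499 3, the smallest adjusted p without it being 0.101 for Fasn by limma. Neutrophil markers, which summed to 418 to 725 RPKM in controls, summed to 814 to 1384 with miR499. Of these 7 markers 5 were tested, 3 higher and 2 lower, and Retnlg was under 1 RPKM. Erythroid markers summed to 19.1 RPKM in miR499 3 and 1.18 to 2.9 in the other 5 libraries of the table. The part of either cell type in the fatty acid values was not tested.

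**Figure D3:**
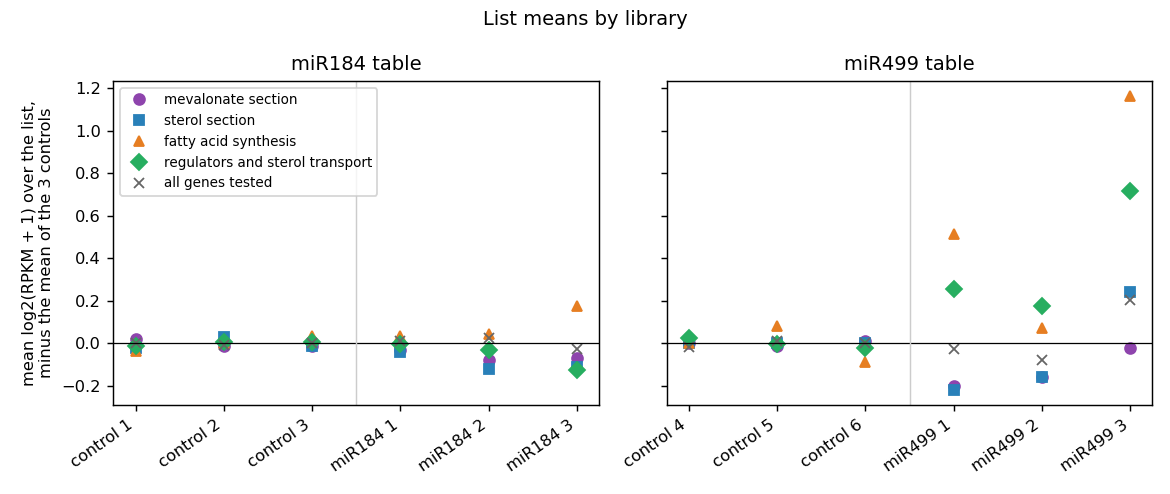
Mean log2(RPKM + 1) of each group of genes in every library, minus the mean of the 3 controls of the same table, with all tested genes as crosses; Scd1 is left out of the fatty acid group. In the miR499 table the fatty acid group averaged 2.87 to 3.04 in controls and 3.47, 3.03 and 4.12 with miR499 1, 2 and 3, while the mevalonate group averaged 5.73 to 5.75 and 5.54, 5.58 and 5.72.

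Among the regulators Srebf1 had the smallest p of all members with miR499. It read 6.74, 6.22 and 6.22 RPKM in controls 4 to 6 and 9.05, 8.62 and 12.5 with miR499. All miR499 libraries were higher than all controls, at a log2 change of 0.56 ± 0.17 (adjusted p = 0.491, limma). Scap, the escort of SREBP, read 2.45, 2.53 and 2.36 RPKM in controls and 4.76, 3.11 and 10.1 with miR499, at 0.89 ± 0.34, also without overlap. Srebf2 read 23.6, 24.5 and 23.9 RPKM in controls and 24.8, 24.0 and 53.0 with miR499. Its groups overlapped, and 1 library made nearly the whole log2 change of 0.38 ± 0.29, which was 0.02 ± 0.07 without miR499 3. Insig1 read 32.5, 30.2 and 31.1 RPKM in controls and 30.3, 35.9 and 35.5 with miR499, at 0.11 ± 0.12. Stard4 was at -0.05 ± 0.14, with 12.3 RPKM in miR499 3 and at least 14.5 in the other 5 libraries.

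The efflux genes were not higher with miR499. Abcg1 read 0.907, 1.90 and 1.28 RPKM in controls 4 to 6 and 0.990, 0.978 and 1.07 with miR499, at -0.21 ± 0.17 (adjusted p = 0.605, limma). Mylip read 0.474, 0.459 and 0.439 RPKM in controls and 0.577, 0.317 and 0.563 with miR499. In the fit with no filter Mylip was at 0.02 ± 0.08 (adjusted p = 0.918, limma), and 9.69% of 19742 genes were higher without overlap. Both genes overlapped, and for Abcg1 the controls were the wider group, with control 5 at the top. The log2 change of Abcg1 was -0.05 without control 5 and -0.36 without control 4. Abca1 had 7, 5 and 0 reads in controls and 4, 0 and 1 with miR499. Among the 16 other LXR, efflux and storage genes 11 were tested. Without miR499 3, 2 were higher and 9 lower (median -0.16), where 58.7% of all genes tested were lower (median -0.06). With all libraries 0 passed and 7 were higher (median 0.11). The smallest p belonged to the transporter gene Abca7 (2.19 ± 0.188 against 5.27 ± 3.20 RPKM, 0.86 ± 0.33, or 0.47 without miR499 3), Plin2 (-0.33 ± 0.16), Smpdl3a (-0.20 ± 0.11) and Lpcat3 (-0.21 ± 0.18). Of the 24 other pathway genes 20 were tested, 0 passed and 10 were lower (median 0.0003), or 14 without miR499 3 (median -0.10). The smallest p belonged to Ggps1, which makes geranylgeranyl diphosphate (-0.42 ± 0.16), Lpin1 (0.58 ± 0.23, tested only through its miR499 level), Elovl1 (-0.28 ± 0.12) and Pdss1 (-0.33 ± 0.16).

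Leaving out miR499 3 altered the outcome of the test. By limma 1681 of the 9815 genes (17.1%) then passed, 1340 lower (13.7%) and 341 higher (3.47%), and with them 7 of the 29 members. Lower with miR499 were Acat2 (log2 change -0.46 ± 0.08, adjusted p = 0.012), Msmo1 (-0.42 ± 0.07, adjusted p = 0.011), Cyp51 (-0.38 ± 0.07, adjusted p = 0.014), Idi1 (-0.31 ± 0.07, adjusted p = 0.022) and Sc5d (-0.38 ± 0.10, adjusted p = 0.035). Higher were Srebf1 (0.41 ± 0.09, adjusted p = 0.022) and Scap (0.50 ± 0.14, adjusted p = 0.047). The 5 lower members are enzymes of cholesterol synthesis, which make up 18 of the 29 tested members. Whether members passed more often than the 17.1% of all genes was not tested. With median-ratio scaling added, 1376 genes passed (14%), 910 lower (9.27%) and 466 higher (4.75%), and Acat2, Msmo1, Cyp51, Srebf1 and Scap still passed (adjusted p of 0.024 to 0.036, limma). Idi1 and Sc5d did not (adjusted p = 0.052 and 0.073). This fit had 2 miR499 libraries and its outcome depends on the choice to leave out the third. Without miR499 3 alone, 3 of the 20 tested other pathway genes passed, all lower, as did 3 lower and 1 higher of the 11 tested other LXR, efflux and storage genes.

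**Figure D4:**
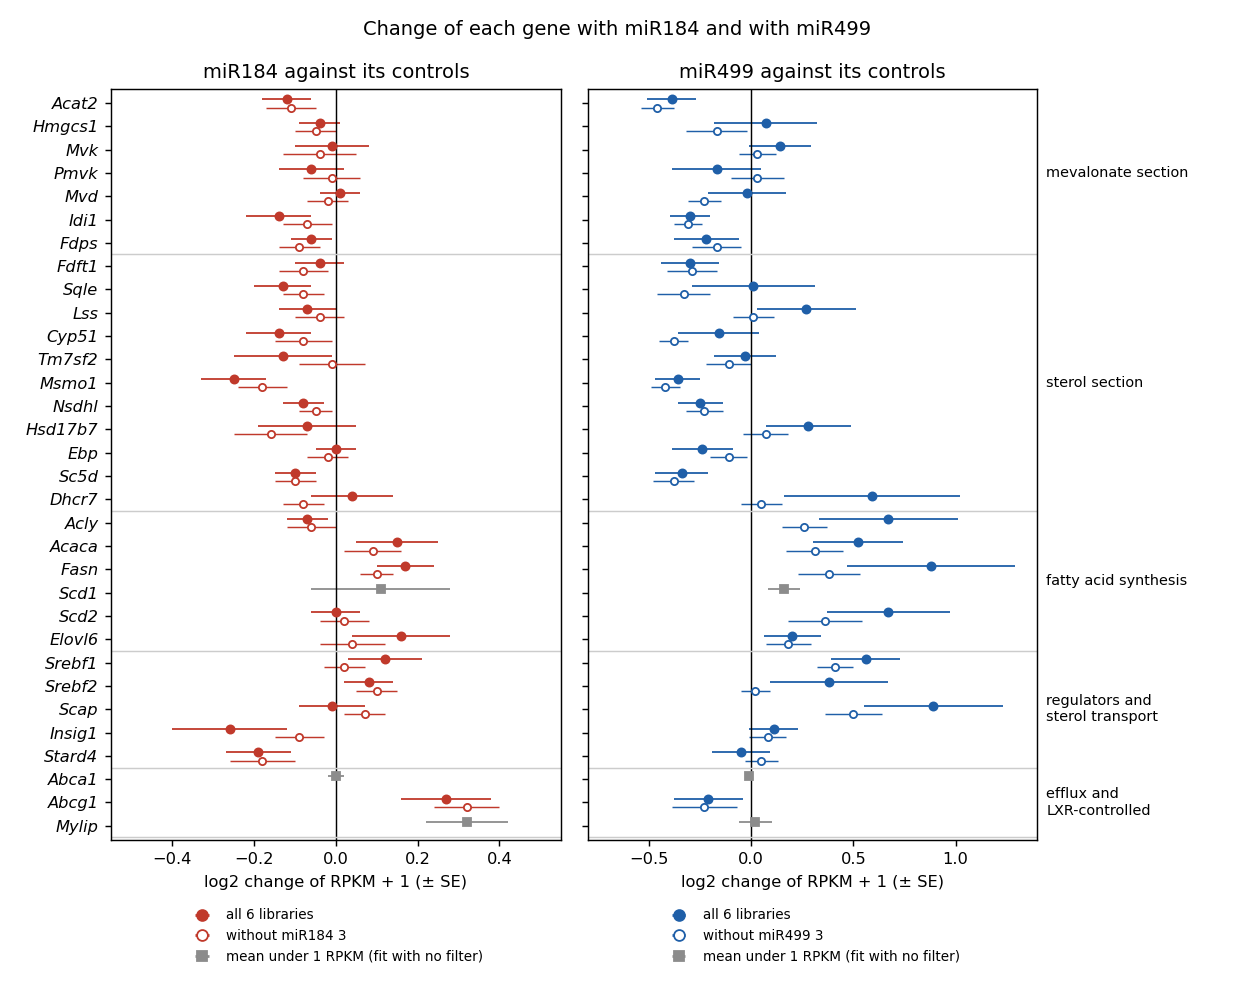
Log2 change of RPKM + 1 (± SE) of each gene with miR184 (left) and miR499 (right) against the controls of the same table, with all 6 libraries (filled), without the third treated library (open), or from the fit with no filter for genes averaging under 1 RPKM (grey squares); the panels differ in scale. With miR499 the filled and open points part most in Dhcr7, Fasn, Acly, Srebf2 and Scap.

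The library miR499 3 lay outside the range of the other 5 libraries of its table in 15 of the 23 tested synthesis genes, above them in 12 (52.2%) and below in 3. Over all genes tested it lay above in 51% and below in 26.7%. Of those 15 genes, 14 lay on the side of the controls in the miR184 table, against 90.5% of all genes outside the range. Scap stood at 10.1 RPKM in miR499 3, 3.04 on average in the other 5 libraries and 13.8 in controls 1 to 3. Fasn stood at 16.2, 4.30 and 23.4 RPKM in the same order, and Dhcr7 at 15.0, 4.14 and 18.7. Ebp, the sterol isomerase, went the opposite way with 38.4, 52.6 and 35.1 RPKM.

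**Figure D5:**
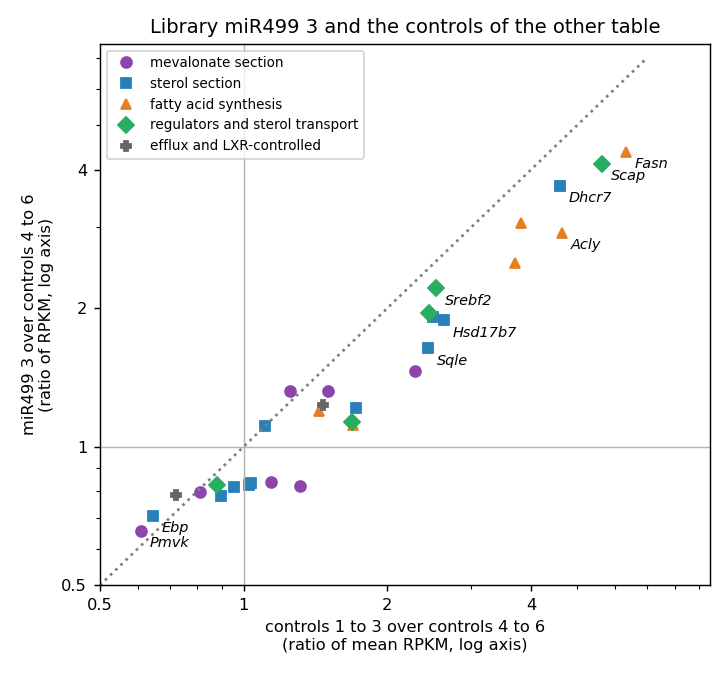
Each gene's RPKM in library miR499 3 (vertical) and its mean in controls 1 to 3 (horizontal), both divided by its mean in controls 4 to 6, on log axes; the dotted line marks equal ratios and Abca1 is left out for its few reads. Fasn, Scap, Dhcr7 and Acly lie at the upper right and Pmvk and Ebp at the lower left. Idi1 and Acat2 were above controls 4 to 6 in controls 1 to 3 and below them in miR499 3. Both ratios share a divisor, which by itself can make them rise together.

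The controls of the tables differed widely in many of these genes, although both sets were labelled control miR. The RPKM summed over all genes differed too. It was 356702 to 369489 in controls 1 to 3, 465018 to 480647 in controls 4 to 6 and 391857 in miR499 3. The sources used here do not say whether the tables were normalized together or apart. The ratios describe deposited values and were not tested. Controls 1 to 3 all lay above controls 4 to 6 in 16 of the 24 synthesis genes, among them all 6 of fatty acid synthesis. They all lay below in 4 (Pmvk, Fdps, Fdft1 and Ebp). The same count was not made over all genes, so these numbers are not shown to be particular to the synthesis genes. Here Fdft1 was the closest, at 48.8 ± 2.25 and 54.4 ± 4.47 RPKM. The ratio of means was 6.31 for Fasn, 5.62 for Scap, 4.62 for Acly and 4.60 for Dhcr7, and close to 1 for Msmo1 (1.03) and Nsdhl (0.954). For Acat2 it was 1.14.

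Whether miR184 and miR499 differed in their effect was tested in 1 limma model of all 12 libraries, as the change with miR184 minus the change with miR499. By limma 0 of 10214 genes passed (0%), with 931 (9.11%) at an unadjusted p under 0.05, among them 3 members. Abcg1 had the smallest p, with log2 changes of 0.27 and -0.21 and a difference of 0.48 ± 0.20 (adjusted p = 0.538, limma). Scap (-0.90 ± 0.38) and Srebf1 (-0.44 ± 0.20) lay the other way, followed by Scd2 (-0.67 ± 0.33), Acly (-0.74 ± 0.38) and Acat2 (0.27 ± 0.14). For all 6 the adjusted p was 0.538 to 0.554 by limma. Without miR499 3, 789 genes (7.72%) passed and 0 members did. No member was thereby shown to respond to 1 miRNA and not to the other.

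The promoters were read because the synthesis genes are grouped by their control through SREBP. RefSeq promoters on GRCm38.p6, 250 bases before to 50 after the start, matched 25 of the 32 genes. Those without were Fdps, Fdft1, Sqle, Scd1, Scd2, Stard4 and Abcg1. The sterol regulatory element TCACNCCAC, sought on both strands, stood in 1 of the 25, Hmgcs1, with its first base 137 bases before the start, and in 1.44% of 27025 genes with a promoter. The CCAAT letters, the box of NF-Y, a factor that works with SREBP, stood in 20 of the 25 on either strand and in 41.1% of those genes. GGGCGG, the GC box, stood in 21 of the 25 (38.2% of genes) and CACGTG, an E-box, in 6 (8.09%). These last 3 motifs were chosen after the first had been searched. The shares are over all genes with a promoter, expressed in these cells or not. Of the efflux genes, Mylip held the CCAAT letters 3 times and Abca1 did not hold them. A match describes letters only, and no match says only that the letters are not in this window. Shown are Hmgcs1 (chr13:119690101-119690400, plus strand), which holds the element, Msmo1 (chr8:64733529-64733828, minus strand), for the sterol section, and Fasn (chr11:120824498-120824797, minus strand), for the fatty acid branch. Capitals mark TCACNCCAC, and CCAAT or its reverse ATTGG, which overlap each other once in Fasn.
Hmgcs1: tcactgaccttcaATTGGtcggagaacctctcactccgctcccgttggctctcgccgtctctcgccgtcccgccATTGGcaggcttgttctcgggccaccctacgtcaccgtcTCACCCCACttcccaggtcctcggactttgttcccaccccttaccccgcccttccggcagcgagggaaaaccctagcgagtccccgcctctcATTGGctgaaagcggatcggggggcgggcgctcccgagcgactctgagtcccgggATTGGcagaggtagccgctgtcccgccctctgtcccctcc
Msmo1: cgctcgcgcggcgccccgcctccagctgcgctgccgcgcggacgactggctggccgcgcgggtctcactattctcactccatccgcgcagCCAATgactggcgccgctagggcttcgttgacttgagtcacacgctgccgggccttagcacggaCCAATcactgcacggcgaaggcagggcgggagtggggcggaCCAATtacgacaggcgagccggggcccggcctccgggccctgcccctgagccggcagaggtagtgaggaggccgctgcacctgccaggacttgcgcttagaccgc
Fasn: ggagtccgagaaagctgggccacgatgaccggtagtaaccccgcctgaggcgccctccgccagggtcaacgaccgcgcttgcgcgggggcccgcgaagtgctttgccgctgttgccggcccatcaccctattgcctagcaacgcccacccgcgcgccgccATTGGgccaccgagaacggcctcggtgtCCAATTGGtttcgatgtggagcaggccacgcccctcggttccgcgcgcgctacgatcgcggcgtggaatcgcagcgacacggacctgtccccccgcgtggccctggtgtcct
The 3 share the CCAAT letters, which stand 4 times in Hmgcs1, 3 times in Msmo1 and 3 times in Fasn.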

How the data were processed

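Per the labels' protocols, total RNA of sorted cells was isolated with a PicoPure kit and prepared for Illumina sequencing. The authors deposited 1 table per miRNA in RPKM, per the file headers. Per the submitters' processing notes the genome build is mm10. Aligner, counting method, annotation and strand handling were not given in the sources used here. Overlapping, antisense or near-identical genes may therefore share or lose reads. Whole reads were recovered from the RPKM steps, with 100% of values above 0 whole within 0.01 reads. For 14842 of the 21134 genes above 0 in any library, the exon length in GENCODE M21 gave whole reads. For the others the shortest length that gave whole reads was taken. Their wholeness is therefore no check, and their reads may be too low. Columns left unused numbered 0.

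Groups came from the sample titles. In each table, treated and control libraries were compared on log2(RPKM + 1), which understates changes of low genes, by limma 3.58.1 in R 4.3.3 with its trend option. Genes needed a mean of at least 1 RPKM over 6 libraries. The threshold was 0.05 on two-sided p-values, adjusted by Benjamini-Hochberg over all tested genes. With 3 libraries a side, an exact permutation test could reach no p below 0.10. The test was also tried on simulated reads, with means and spread taken from the controls of each table. That trial held no outlying library, so it does not speak for the miR499 libraries with miR499 3 among them. Alternatives were median-ratio scaling, no filter, a filter at 5 RPKM, a pseudocount of 0.1, limma voom on recovered reads, 1 model of 12 libraries, a replicate block and each library left out.

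Values of every library are given for the efflux genes, Srebf1, Srebf2, Insig1 and the 6 members with the smallest p in each comparison, with up to 4 genes of each other list and 6 members for the difference by smallest p. Library values of other members were added after they were seen. The members, lists and tests were chosen with earlier results of these data known.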

Additional observations from a re-analysis of the deposited data

How the results depend on the processing

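Calls depended on 1 library. With miR499, 1681 genes and 7 members passed without miR499 3, or 1376 and 5 with median-ratio scaling added, against 0 in every other setting, so leave-one-out counts ran from 0 to 1681 genes and from 0 to 7 members. For the difference they ran from 0 to 789 genes (1 without control 1, 789 without miR499 3) and for miR184 from 0 to 2 (2 without control 1). The efflux median with miR184, which is that of Abcg1, was 0.27, but 0.46 at a pseudocount of 0.1 and 0.50 by limma voom on reads. It could not be given with a filter at 5 RPKM, which leaves no efflux gene. Filters and pseudocounts limit what can be said of genes near 1 RPKM.

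Deviations from the group means correlated at 0.06, -0.05 and -0.03 between controls and miR184 libraries of the same title number. With 3 libraries a group, this cannot show whether the samples were paired. Replicate numbers in the descriptions differ for some samples from those in the titles, which were used here. With the replicate block 2 genes and 0 members passed. For miR499 no such block was possible, because controls 4 to 6 and miR499 1 to 3 share no title number.

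Some small changes turned sign. With median-ratio scaling these were Elovl6 for the difference (0.02), Hmgcs1 with miR499 (-0.0027), Mvd and Scd2 with miR184 (-0.0017 and -0.01) and Sqle with miR499 (-0.06). With miR499 3 also left out, they were Hmgcs1 (-0.13), Pmvk (0.07), Sqle (-0.30) and Stard4 (0.09). Leaving out each library in turn, the log2 change with miR184 crossed 0 for Dhcr7 (-0.08 to 0.11), Ebp (-0.02 to 0.02), Fdft1 (-0.08 to 0.0045), Hsd17b7 (-0.16 to 0.0046), Mvd (-0.02 to 0.04), Mvk (-0.07 to 0.07), Pmvk (-0.10 to 0.0030), Scap (-0.06 to 0.07) and Scd2 (-0.04 to 0.03). With miR499 it did so for Hmgcs1 (-0.17 to 0.34), Mvd (-0.23 to 0.09), Pmvk (-0.39 to 0.03), Sqle (-0.33 to 0.29), Stard4 (-0.11 to 0.05) and Tm7sf2 (-0.11 to 0.04). For the difference it did so for Cyp51 (-0.10 to 0.23), Elovl6 (-0.16 to 0.07), Hmgcs1 (-0.38 to 0.13), Mvd (-0.08 to 0.23), Pmvk (-0.09 to 0.33), Sqle (-0.42 to 0.20), Srebf2 (-0.50 to 0.06) and Tm7sf2 (-0.18 to 0.02).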
